A study of Bos taurus and Mus musculus with 16 samples.

Results

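The antioxidant, glutathione and aldo-keto reductase genes described here are 41 named genes, chosen by symbol alone and not by their measured values. They cover the thioredoxin and peroxiredoxin system, glutathione synthesis and use, 4 carbonyl and quinone reductases, heme oxygenases, superoxide dismutases, catalase and 3 regulators. The groups and the tests were chosen with earlier results of these data known, so shares by group are a description only. Of the 41 genes, 39 had a row among the 16655 genes of the mouse table and 39 among the 14852 genes of the bovine table, and 37 had a row in both. Gstt1 and Mgst1 had no row in the mouse table, and AKR1B3 and AKR1B8, which are mouse names, had none in the bovine table. A gene was tested where its mean over the samples of its species reached 10 normalized reads (reads assigned to the gene, divided by the authors' scaling factor of that sample). That left 38 members in mouse, with Gstm1 below the limit, and 33 in cattle, with GPX3, GSTT1, HMOX1, NQO1, SRXN1 and TXNRD2 below it.

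Polyadenylated RNA was sequenced from mouse morulae 3.25 days after fertilization and from bovine blastocysts at 7.0 days. Every zygote had received mRNA of BE3, a cytosine base editor made of a Cas9 nickase and a cytidine deaminase. Control zygotes received BE3 mRNA alone, and edited zygotes received it together with a mix of single guide RNAs against Tead4 (mouse) or TEAD4 (cattle), which encode a DNA-binding partner of the Hippo pathway co-activators. There were 2 control and 2 edited mouse samples and 6 control and 6 edited bovine samples. Controls carried no guide RNA, so effects of guide RNA as such and of TEAD4 loss cannot be told apart. Strain, breed, number of embryos in a sample, editing efficiency and whether samples came from separate injections are not given in the sources used here. The p-values therefore reflect only how far these samples spread, a spread that may be technical. The samples are whole embryos in bulk, in which fewer cells of a type and less RNA per cell cannot be told apart.

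Reactive oxygen species are handled in layers. Superoxide dismutases turn superoxide into hydrogen peroxide, which catalase, peroxiredoxins and glutathione peroxidases then remove. For peroxiredoxins and glutathione peroxidases, thioredoxin or glutathione supplies the electrons, drawn from NADPH by thioredoxin reductase and glutathione reductase. Glutathione transferases and aldo-keto reductases clear the reactive carbonyls left by oxidized lipids, and many of these genes are induced through the transcription factor NRF2 (Nfe2l2), which KEAP1 holds in check. Preimplantation embryos are sensitive to oxidants, which arise in their mitochondria and in culture.

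Depth was 3642907 to 4187826 reads assigned to genes in the mouse control samples, 4386305 to 6109425 in the mouse edited samples, 934078 to 2501592 in the bovine control samples and 817329 to 2259064 in the bovine edited samples. The edited gene checked the labels: mouse Tead4 stood at 458 and 519 normalized reads in controls and at 57.2 and 76.5 after editing (-2.86 ± 0.25 in log2, limma adjusted p = 5.37e-09). Bovine TEAD4 stood at 61.2 to 125 in controls and at 22.6 to 65.6 after editing, so the bovine groups overlapped slightly (-1.25 ± 0.25, adjusted p = 0.235). Of 5 trophectoderm markers listed in mouse (Elf5 had no row), 4 were lower in edited morulae, and the summed level of the 5 lay between 6169 and 7107 normalized reads in controls and between 1894 and 2124 after editing. In cattle all 6 had a row, 4 were tested and none passed, with sums of 11090 to 21400 and 8442 to 21450. Of 4 inner cell mass markers 1 was higher in edited morulae, Pou5f1, at 344 to 436 in controls and 930 to 1133 after editing. Nanog stood at 1618 to 1918 in controls and at 738 to 1884 after editing. Sox2 was low and did not pass, at 18.97 to 22.35 in controls and 40.04 to 46.78 after editing. Klf4 overlapped, at 295 to 384.5 and 280.7 to 413.8. The sums of the 4 overlapped, at 2280 to 2757 in controls and 2325 to 3141 after editing. Of 4 primitive endoderm markers 1 was higher, Gata4, at 5.59 to 8.85 in controls and 39.1 to 40.4 after editing. Gata6, the most abundant of the 4, lay lower, at 1516 to 1616 in controls and 1240 to 1248 after editing, and did not pass. The sum of the 4 was also lower, at 1600 to 1706 in controls and 1342 to 1412 after editing. Of 6 blood markers 2 had a row in mouse, with sums of 64.5 to 74.9 in controls and 88.6 to 165 after editing, and neither passed. Of 10 markers of cumulus and granulosa cells, 2 had a row in mouse, with sums of 8.85 to 14.5 in controls and 14.9 to 30.5 after editing. No spermatozoon marker of 5 had a row there. In cattle 6 of the 10 cumulus markers had a row, with sums of 17.7 to 198 in controls and 13.6 to 86.3 after editing. The part of cell composition in the results below was not tested.

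In mouse morulae, 13 of the 38 tested members passed limma's moderated test at a Benjamini-Hochberg adjusted p under 0.05 over all genes (34.2%), against 15.3% of all 11386 genes tested. Of them, 9 were lower in edited morulae (23.7%, against 8.38% of all genes) and 4 were higher (10.5%, against 6.92%). The lower ones were Akr1b8, Gsta4, Mgst3, Prdx4, Prdx6, Txn1, Gpx4, Sod1 and Sod2, and the higher ones were Hmox1, Akr1b3, Keap1 and Cat. At an unadjusted p under 0.05, 17 members passed, against 28.6% of all genes. The median log2 fold change of the tested members (edited minus control, on log2 of normalized reads + 1) was -0.18, and that of all genes was -0.00. Control and edited values did not overlap for 57.9% of the tested members, close to the 57.8% of all genes. The member count was 7 without control sample 1, where 4.70% of all genes passed, and 5 without control sample 2, where 4.68% passed. It was 7 when each sample's trend with transcript length was removed, with 10.8% of all genes. The 9 lower members had a median transcript length of 1051 bases, against 2897 for all genes with a length.

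**Figure D1:**
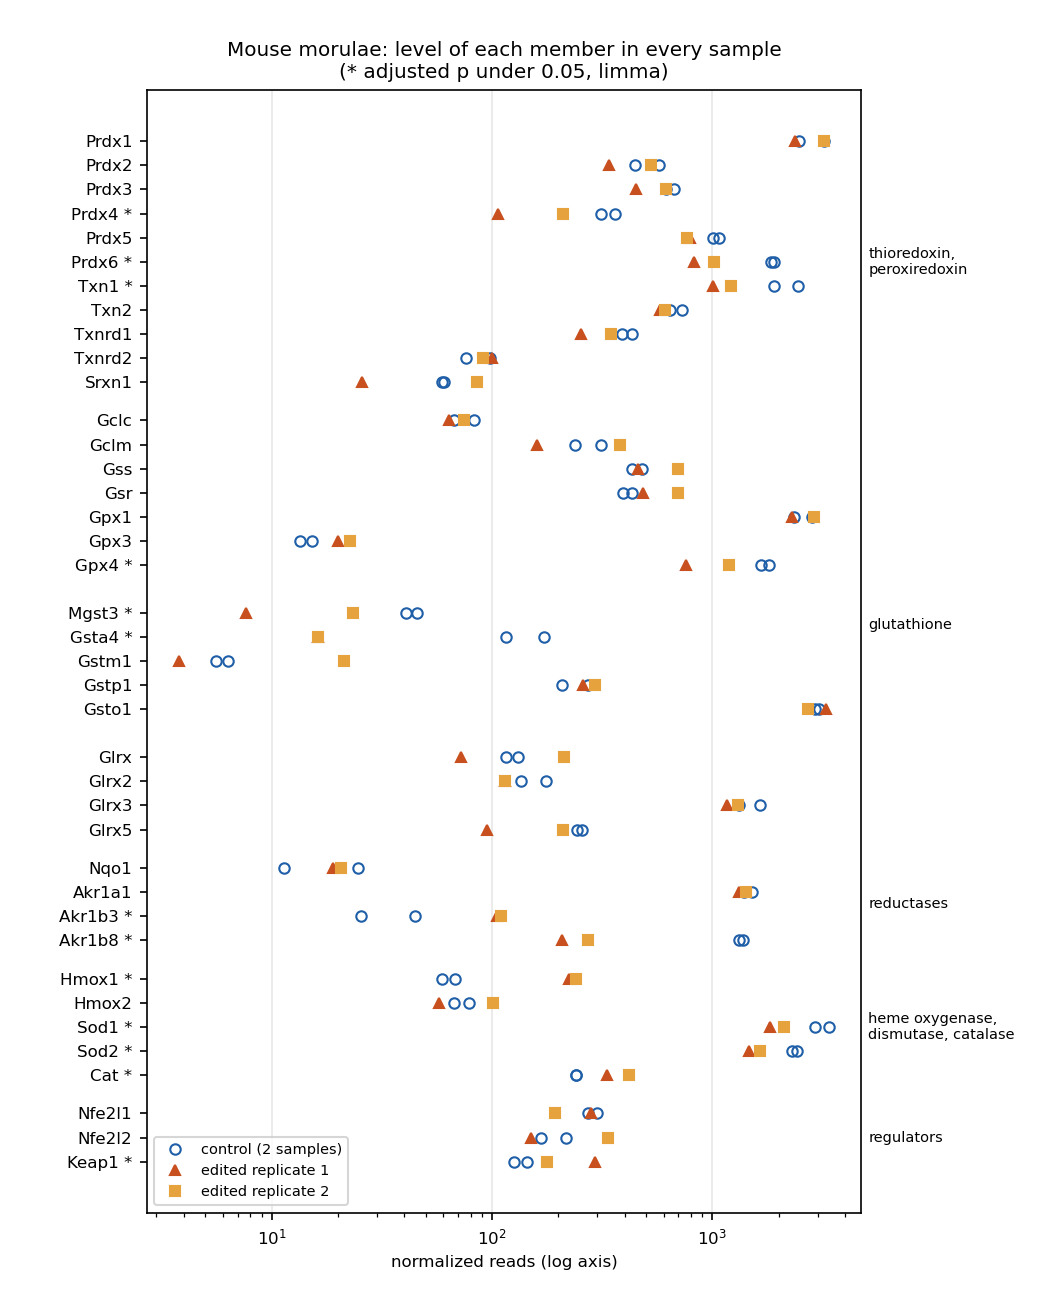
Level of each member in every mouse sample, in normalized reads on a log axis. Open circles are the 2 control samples, triangles and squares the edited samples, and a star marks an adjusted p under 0.05 (limma). For Akr1b8 and Gsta4 both edited samples lie far below both controls, and for Hmox1 and Akr1b3 far above them. For Srxn1, Gclm, Glrx and Nfe2l2 the edited samples lie on either side of the controls.

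Neighbouring aldo-keto reductase genes moved in opposite directions. Akr1b8, which encodes a reductase of long-chain and lipid-derived aldehydes, stood at 1381 and 1326 normalized reads in controls and at 208 and 274 after editing. The edited level was 17.8% of the control mean, or -2.50 ± 0.19 in log2 fold change (± SE, n = 2 per group, limma adjusted p = 1.07e-09). Akr1b3, the mouse aldose reductase, which converts glucose to sorbitol and also reduces aldehydes, stood at 44.7 and 25.3 in controls and at 105 and 110 after editing. It was higher by 1.64 ± 0.35 on the log2 scale (n = 2 per group, limma adjusted p = 0.00223), a call that was lost without control sample 2 (adjusted p = 0.0800). Per kilobase of transcript, Akr1b8 stood at 996 normalized reads in controls and 177 after editing, so even after its fall it remained above the 25.2 of Akr1b3 in controls. Akr1a1, the general aldehyde reductase, did not pass the test (-0.09), with values from 1321 to 1520 in all 4 samples. The quinone reductase gene Nqo1, a standard readout of NRF2 activity, stood at 24.6 and 11.4 in controls and at 19.1 and 20.6 after editing, and the groups overlapped (0.22 ± 0.56, adjusted p = 0.832).

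Akr1b3 and Akr1b8 are neighbours in a tandem cluster of related genes on chromosome 6 (GRCm38, GENCODE M21). Akr1b3 lies at 34302434 to 34317478 on the minus strand and Akr1b8 at 34354119 to 34368463 on the plus strand, 36640 bases apart and transcribed away from each other. Sequence likeness decides whether reads can be told apart, so their coding sequences were compared base by base. The coding sequences were of equal length, 948 bases, and identical at 672 positions (70.9%), with a longest identical run of 24 bases. Windows of 60 bases were compared that began at a codon start and crossed no exon boundary in either gene. Those with the fewest (9) and the most (30) differences are shown, with the differing bases in capitals. The first pair lies in exon 8 of 10 of both genes, at chr6:34309003-34309062 (minus strand, Akr1b3) and chr6:34365207-34365266 (plus strand, Akr1b8).
Akr1b3, fewest differences: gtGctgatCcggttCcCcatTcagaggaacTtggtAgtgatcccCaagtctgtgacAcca
Akr1b8, fewest differences: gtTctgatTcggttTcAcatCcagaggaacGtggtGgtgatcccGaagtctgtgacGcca
The second pair lies in exon 4 of 10, at chr6:34310943-34311002 (Akr1b3) and chr6:34358131-34358190 (Akr1b8).
Akr1b3, most differences: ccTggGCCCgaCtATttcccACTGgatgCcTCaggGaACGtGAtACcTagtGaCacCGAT
Akr1b8, most differences: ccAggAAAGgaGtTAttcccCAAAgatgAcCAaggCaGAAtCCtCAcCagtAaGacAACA
Even the most alike of the windows compared differs in 9 of 60 bases between these genes. Untranslated sequence was not compared. Akr1b8 is closer to Akr1b10, with 84.7% identical bases and a longest identical run of 80. Akr1b8 and Akr1b7 share 84.8%, with a longest run of 52, and Akr1b7 had no row in the mouse table. Akr1b10 itself was too low to be tested, at 4.47 and 2.53 normalized reads in controls and 15.3 and 6.38 after editing.

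**Figure D2:**
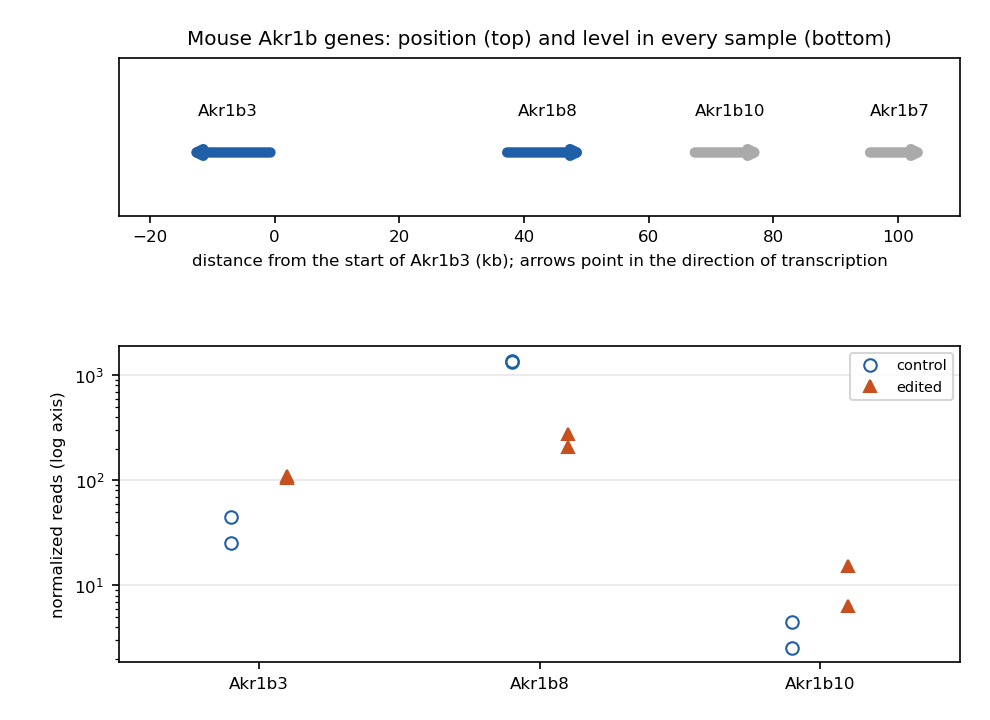
Top: the Akr1b genes of mouse chromosome 6 by distance from the start of Akr1b3 in kilobases, with arrows in the direction of transcription (grey genes are not members). Bottom: normalized reads of the 3 genes with a row in the table, on a log axis, for 2 control and 2 edited samples. Akr1b8 goes from 1326 or more to 274 or less, while its neighbour Akr1b3 goes from 44.7 or less to 105 or more.

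Among the transferases, which couple glutathione to reactive molecules, 2 of 4 tested members were lower and none was higher. Of all genes tested, 8.38% were lower and 6.92% higher. Gsta4 (chromosome 9, 78182774 to 78209349, plus strand), whose enzyme conjugates the lipid peroxidation product 4-hydroxynonenal, had the largest fold change of all members. It stood at 116 and 172 normalized reads in controls and at 16.2 and 16.3 after editing. That was 11.3% of the control mean, or -3.05 ± 0.37 in log2 fold change (n = 2 per group, limma adjusted p = 3.37e-06). Mgst3, a microsomal transferase, stood at 45.8 and 40.5 in controls and at 7.63 and 23.4 after editing, without overlap. Its change of -1.60 ± 0.52 (adjusted p = 0.0374) was called in 5 of 13 alternative fits, and was lost without either control sample or edited sample 1 (adjusted p up to 0.303). Gsto1, one of the most abundant members per length (2537 normalized reads per kilobase in controls), did not pass (-0.01), nor did Gstp1 (0.21). Gstm1 was listed at 3.81 to 21.3 normalized reads over the 4 samples and was not tested. Reads of the Gstm and Gstp genes may be split with close copies, and how the authors counted such reads is not given in the sources used here.

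Of 4 genes that make and recycle glutathione, 0 passed with limma, edgeR or DESeq2, and 1 had an unadjusted p under 0.05 with limma. Of all genes, 15.3% passed with limma and 28.6% had an unadjusted p under 0.05. Gclc and Gclm encode the catalytic and the modifier subunit of glutamate-cysteine ligase, the first step of synthesis. Gclc stood at 82.7 and 67.0 normalized reads in controls and at 63.9 and 74.4 after editing (-0.11 ± 0.32, limma adjusted p = 0.860). Gclm stood at 239 and 312 in controls and at 160 and 379 after editing (-0.15 ± 0.28, adjusted p = 0.775). Its edited samples lay on opposite sides of both controls. Glutathione synthetase (Gss, 0.32) and glutathione reductase (Gsr, 0.49) had positive estimates, and Gsr, at 393 and 433 in controls against 485 and 695 after editing, had groups that did not overlap but missed the threshold (adjusted p = 0.106). With every sample scaled to the same total, which shifts the median of all genes to 0.12, Gsr passed and the sign of Gclc turned (0.01).

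The glutathione peroxidases among the members use a selenocysteine at their active site, encoded by a TGA codon that elsewhere ends translation. The sequences around that codon are shown for Gpx1 and Gpx4, members with the same catalytic residue and different behaviour in these samples, and for Txnrd1, which carries it as its next-to-last amino acid. They were taken from GENCODE M21 transcripts (GRCm38), all on the plus strand, with the TGA codon in capitals.
Gpx1, chr9:108339436-108339468, exon 1 of 2, codon 47 of 201: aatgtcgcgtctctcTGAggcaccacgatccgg
Gpx4, chr10:80054722-80054754, exon 3 of 7, codon 73 of 197: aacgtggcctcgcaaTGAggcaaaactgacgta
Txnrd1, chr10:82896022-82896042, exon 14 of 14, codon 498 of 499: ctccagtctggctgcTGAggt
Gpx4, the peroxidase that reduces lipid hydroperoxides within membranes, stood at 1810 and 1657 normalized reads in controls and at 763 and 1184 after editing. Gpx4 fell to 56.2% of the level in controls (-0.86 ± 0.19, n = 2 per group, limma adjusted p = 0.00255), a call lost without control sample 1 (adjusted p = 0.0902) and with the length trend removed (-0.51, adjusted p = 0.0774). Gpx1, the cytosolic peroxidase, had overlapping values of 2818 and 2334 in controls and 2306 and 2878 after editing (0.01 ± 0.17). Gpx3, the secreted peroxidase, was low, at 13.4 and 15.2 in controls and 20.0 and 22.7 after editing, and did not pass (0.55 ± 0.55). Of the 5 members whose enzymes contain selenocysteine, Gpx4 was thus the 1 that passed (20.0%, against 15.3% of all genes). The estimates of the other 4 ranged from -0.47 (Txnrd1) to 0.55 (Gpx3).

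Glutaredoxins reduce disulfides with electrons from glutathione, and Glrx3 and Glrx5 also carry iron-sulfur clusters. None of 4 passed with limma, edgeR or DESeq2, and 1 had an unadjusted p under 0.05 with limma (15.3% and 28.6% of all genes with limma). Glrx5, of the mitochondrial iron-sulfur pathway, came nearest, at 255 and 244 normalized reads in controls and 95.3 and 210 after editing (-0.81 ± 0.28, limma adjusted p = 0.0507). It passed with a pseudocount of 5, a filter of 50 normalized reads, the replicate block and without edited sample 2. Estimates of the other 3 were -0.42 (Glrx2), -0.25 (Glrx3) and 0.01 (Glrx).

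In the thioredoxin and peroxiredoxin group, 3 of 11 tested members were lower in edited morulae (27.3%, against 8.38% of all genes). None was higher, against 6.92% of all genes. Prdx6 (chromosome 1, 161240112 to 161251219, minus strand), a peroxidase of phospholipid hydroperoxides, stood at 1910 and 1849 normalized reads in controls and at 828.5 and 1015 after editing. The edited level was 49.0% of control (-1.03 ± 0.17, n = 2 per group, limma adjusted p = 0.000166). Prdx4, the peroxiredoxin of the endoplasmic reticulum, stood at 313 and 362 in controls and at 107 and 211 after editing (-1.16 ± 0.26, adjusted p = 0.00348). The Prdx4 call was lost without control sample 2 (adjusted p = 0.104) and with the length trend removed (-0.82, adjusted p = 0.0669). Txn1, cytosolic thioredoxin, stood at 1909 and 2434 in controls and at 1009 and 1220 after editing, or 51.3% of control (-0.96 ± 0.18, adjusted p = 0.000490), and was lost without control sample 2 (adjusted p = 0.0719). For each of these 3 genes, both edited samples lay below both controls. Groups did not overlap, in either direction, for 57.8% of all genes tested.

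The other 4 peroxiredoxins did not pass, with estimates from -0.41 (Prdx5, of mitochondria and peroxisomes) to -0.03 (Prdx1, cytosolic). All 6 peroxiredoxin estimates were thus negative, except that Prdx1 turned to 0.10 with every sample scaled to the same total and to 0.16 without control sample 2. Prdx1 and Prdx2 were both positive without edited sample 1. Txnrd1, cytosolic thioredoxin reductase, stood at 390.0 and 431 normalized reads in controls and at 253 and 347 after editing, without overlap (-0.47 ± 0.21, limma adjusted p = 0.146). Srxn1, sulfiredoxin, which restores over-oxidized peroxiredoxins, stood at 60.3 and 59.5 in controls and at 25.7 and 85.0 after editing (-0.34 ± 0.42, adjusted p = 0.636). The edited samples of Srxn1 lay on either side of nearly identical controls. The mitochondrial pair Txn2 (-0.21) and Txnrd2 (0.15) did not pass either.

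The heme, superoxide and peroxide enzymes moved in both directions, with 2 of 5 higher and 2 lower. Of all genes tested, 6.92% were higher and 8.38% lower. Hmox1 (chromosome 8, 75093621 to 75100589, plus strand), the inducible heme oxygenase, which breaks down heme to biliverdin, iron and carbon monoxide, stood at 68.2 and 59.5 normalized reads in controls and at 224 and 240.3 after editing. The edited level was 364% of control (1.85 ± 0.27, n = 2 per group, limma adjusted p = 3.67e-05). Hmox2, the constitutive enzyme, did not pass (0.07). Sod1, the cytosolic copper-zinc superoxide dismutase and the most abundant member per length (4908 normalized reads per kilobase in controls), stood at 2927 and 3366 in controls and at 1825 and 2121 after editing. Its change was -0.67 ± 0.16 (adjusted p = 0.00573), but -0.14 with the length trend removed (adjusted p = 0.583), and its call was lost without either control sample (adjusted p up to 0.175). Sod2, the mitochondrial manganese enzyme, stood at 2306 and 2431 in controls and at 1462 and 1649 after editing (-0.61 ± 0.16, adjusted p = 0.0114), a call also lost without either control sample (adjusted p up to 0.183). Both dismutases lay lower in each edited sample than in each control, where 57.8% of all genes had groups without overlap in either direction. Catalase (Cat), which splits peroxide in peroxisomes, stood at 240.3 in both control samples and at 334 and 417 after editing (0.63 ± 0.22, adjusted p = 0.0469), and was called in 8 of 14 alternative fits. It was lost without either control sample and without edited sample 2 (adjusted p up to 0.258).

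Of the regulators, Keap1, the adaptor that marks NRF2 for degradation, stood at 125 and 144 normalized reads in controls and at 295 and 178 after editing (0.76 ± 0.26, limma adjusted p = 0.0475). Its call stood in 8 of 14 alternative fits and was lost without either control sample and without edited sample 1 (0.40 in the last, adjusted p = 0.429). Nfe2l2, encoding NRF2, stood at 167 and 218 in controls and at 150 and 337 after editing, on either side of the controls (0.24 ± 0.29, adjusted p = 0.628). It was 0.82 without edited sample 1 (adjusted p = 0.0172) and -0.34 without edited sample 2. Nfe2l1 did not pass (-0.29). Among genes widely used as NRF2 targets, Hmox1 was thus higher, while Nqo1, Gclc, Gclm, Srxn1 and Txnrd1 did not pass and had estimates from -0.47 to 0.22. These genes are only a part of the pathways, in which other genes passed in both directions. Txn1 (-0.96), Gsta4 (-3.05) and Akr1b8 (-2.50) were lower, for example, and Sqstm1 (0.78) and Tkt (1.05) of the wider list below were higher. Without edited sample 2, Gclm (-0.77, adjusted p = 0.0156), Srxn1 (-1.19, adjusted p = 0.0409) and Txnrd1 (-0.70, adjusted p = 0.0145) were called lower.

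**Figure D3:**
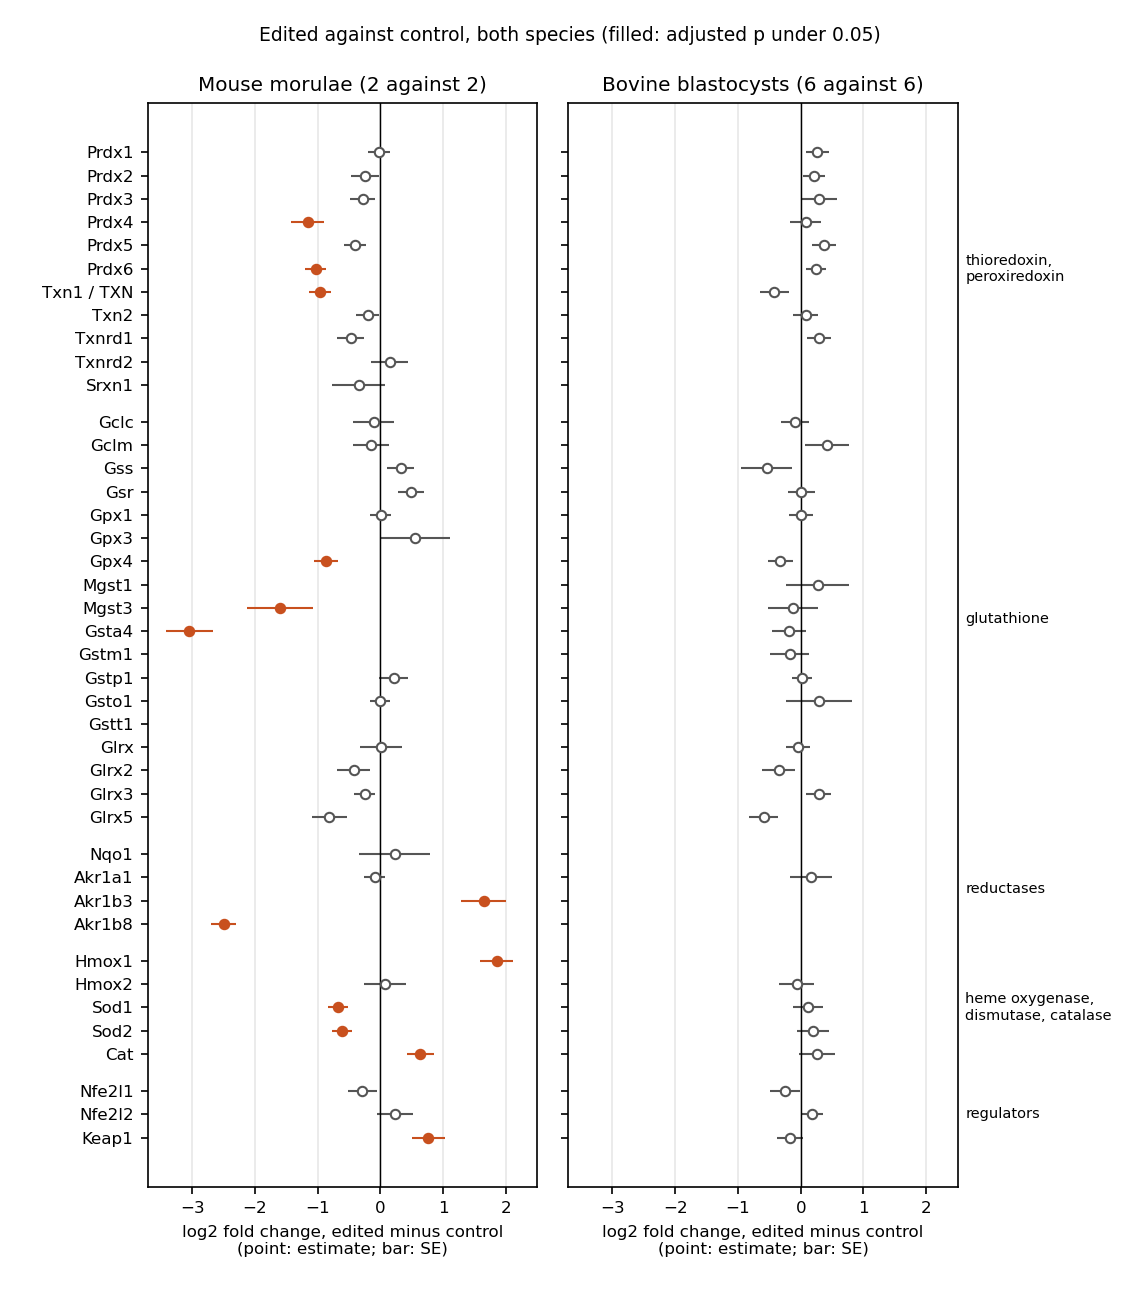
Log2 fold change (edited minus control) of each member with its standard error as a bar, in mouse morulae (2 against 2 samples) and bovine blastocysts (6 against 6). Filled points passed at an adjusted p under 0.05, and a missing point was not tested. The mouse panel holds 13 filled points between -3.05 and 1.85, and the bovine panel none, with all estimates between -0.59 and 0.42.

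The edited mouse samples differed from each other in these genes. Of the 38 tested members, 33 (86.8%) were lower in edited sample 1 than in edited sample 2, against 54.6% of all genes tested. Edited sample 1 lay below both controls for 26 members (68.4%, against 43.1% of all genes), and edited sample 2 for 18 (47.4%, against 37.6%). For 7 members, Gclm, Glrx, Gpx1, Hmox2, Nfe2l2, Prdx1 and Srxn1, edited sample 1 lay below and edited sample 2 above both controls (18.4%, against 6.59% of all genes). The median difference from the control mean was -0.34 for edited sample 1 and -0.02 for edited sample 2 on the log2 scale, against -0.03 and 0.03 over all genes. The count of members called was 17 (3 higher, 14 lower) without edited sample 2, where 22.6% of all genes passed, and 14 (6 higher, 8 lower) without edited sample 1, where 11.9% passed. Akr1b8, Gsta4, Hmox1 and Prdx6 were called in all 14 alternative fits, those that left out 1 library included, with adjusted p up to 0.0218.

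A wider list of 61 symbols of the same pathways, none of them members, was counted in the same fit. The list was chosen with earlier results of these data known, so its shares are a description only. In mouse 46 were tested and 13 passed (28.3%, against 15.3% of all genes), 8 higher and 5 lower. With DESeq2 4 were higher and 2 lower, where 11.9% of all genes passed. Without control sample 1 or 2 it was 4, against 4.70% and 4.68% of all genes, and only Sesn2 and Tkt passed in every fit that left out 1 sample. Among partners of NRF2, the autophagy adaptor Sqstm1 (0.78) and the repressor Bach1 (0.56) were higher, and Cul3 (-0.57) and Rbx1 (-0.72), parts of the ubiquitin ligase that KEAP1 serves, were lower. For cystine and glutathione handling, the transporter heavy chain Slc3a2 (0.69) and the glutathione-degrading Ggt1 (0.99) were higher. Transketolase (Tkt) stood at 231 and 228 normalized reads in controls and at 523 and 436 after editing (1.05 ± 0.21, limma adjusted p = 0.00110). It was the 1 of 6 genes listed under NADPH supply that passed (16.7%, near the 15.3% of all genes). The rest, G6pdx (0.47), Idh1 (0.48), Pgd (0.13), Me1 (-0.33) and Taldo1 (0.04), did not. In iron and heme handling, ferritin light chain Ftl1 (-0.71) and biliverdin reductase Blvra (-1.47), which acts next after heme oxygenase, were lower. Blvra stood at 64.8 and 79.7 in controls and at 15.3 and 41.8 after editing, and its call was lost without either control sample or edited sample 1 (adjusted p up to 0.231). Sesn2 (1.71), Sesn1 (0.91) and Nqo2 (0.94) were higher and Txndc17 (-0.69) was lower among other redox enzymes.

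In bovine blastocysts, 0 of the 33 tested members passed limma's test, against 0.0113% of 8884 genes tested, which is 1 gene. At an unadjusted p under 0.05, 1 member passed, against 5.88% of all genes. Neither edgeR nor DESeq2, run on the whole reads recovered from the deposited values, called a member. The median log2 fold change of the tested members was 0.08, against 0.01 for all genes. Control and edited values overlapped for every tested member (groups without overlap made up 0.248% of all genes). The 18S ribosomal RNA gene RN18S1 took 12.4 to 36.6% of the reads in controls and 9.27 to 19.7% after editing, and scaling every sample to the same total moved the median of all genes to 0.13 and that of the members to 0.20. With RN18S1 left out of that total the medians were -0.02 and 0.05, and 0 members were called under either scaling (limma). In the latter GLRX5 was at -0.62 and PRDX5 at 0.34.

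The 5 bovine members with the smallest unadjusted p are given with their lowest, median and highest sample. GLRX5 stood at 26.8, 47.4 and 59.8 normalized reads in controls and at 21.1, 27.5 and 39.6 after editing (-0.59 ± 0.23, SE, n = 6 per group, 95% interval -1.07 to -0.11, limma adjusted p = 0.792). All 6 edited samples of GLRX5 lay below the control median, although the ranges overlapped. How many of all genes show this pattern was not counted. PRDX5 stood at 114, 189 and 253 in controls and at 188, 233 and 301 after editing (0.37 ± 0.19, interval -0.04 to 0.78, adjusted p = 0.792). TXN, bovine thioredoxin, stood at 791, 1024 and 1350 in controls and at 496, 784 and 1343 after editing (-0.42 ± 0.23, interval -0.90 to 0.06, adjusted p = 0.792). The highest edited TXN value almost equalled the highest control value. PRDX6 stood at 440, 556 and 681 in controls and at 537, 683 and 769 after editing (0.24 ± 0.15, interval -0.08 to 0.56, adjusted p = 0.793). GPX4 stood at 251, 309 and 567 in controls and at 228, 275 and 344 after editing (-0.32 ± 0.20, interval -0.75 to 0.10, adjusted p = 0.793), with 2 controls, at 505 and 567, above all edited samples.

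**Figure D4:**
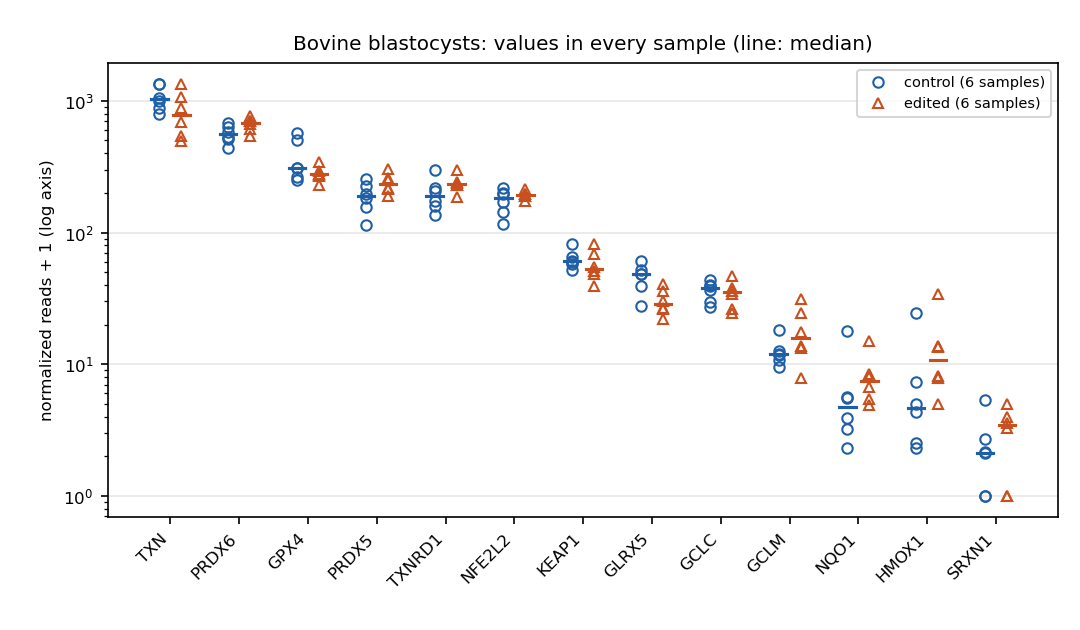
Normalized reads + 1, on a log axis, of 13 members in every bovine sample. Circles are 6 control samples, triangles 6 edited samples, and lines are medians. The groups overlap for each gene shown, and for GLRX5 all edited samples lie below the control median.

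Bovine NRF2 system genes overlapped between groups as well. TXNRD1 stood at 134, 189 and 299 normalized reads (lowest, median and highest) in controls and at 186, 234 and 296 after editing (0.29 ± 0.19). NFE2L2 stood at 115, 183 and 216 in controls and at 171, 191 and 212 after editing (0.18 ± 0.17). KEAP1 stood at 51.0, 59.4 and 80.7 in controls and at 38.2, 51.8 and 80.3 after editing (-0.17 ± 0.21). The adjusted p of each of the 3 was at least 0.795 (limma). GCLM was low, at 8.56, 10.9 and 17.1 in controls and 6.89, 14.7 and 30.1 after editing (0.42 ± 0.35, adjusted p = 0.810). GCLC stood at 26.2, 37.0 and 42.3 in controls and 23.5, 34.1 and 46.2 after editing (-0.09 ± 0.22, adjusted p = 0.945). HMOX1, NQO1 and SRXN1 had control medians near or under the level of 3 reads, which is 1.71 to 5.56 normalized reads in these libraries, a limit that covers counting error only. HMOX1 stood at 1.31, 3.65 and 23.3 in controls and at 4.01, 9.83 and 33.4 after editing. NQO1 stood at 1.31, 3.74 and 16.9 in controls and at 3.89, 6.41 and 14.1 after editing. All 6 edited samples lay above the control median for both genes, as they also did for GLRX3. The lowest edited values of HMOX1 and NQO1 lay close to that median, and neither gene was tested. How many of all genes show this pattern was not counted. SRXN1 was at 0 in 2 control and 2 edited samples, with highest values of 4.37 and 4.01.

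By group, the 6 bovine peroxiredoxin estimates were all positive, from 0.08 (PRDX4) to 0.37 (PRDX5). PRDX1, cytosolic, stood at 2738, 3628 and 4609 in controls and at 3093, 4217 and 5953 after editing (0.26 ± 0.18). The sign of PRDX4 turned without control sample 4 (-0.04) and without edited sample 5 (-0.06). Estimates of glutathione synthesis and recycling ran from -0.54 (GSS) to 0.42 (GCLM), those of transferases from -0.19 (GSTA4) to 0.29 (GSTO1), and those of glutaredoxins from -0.59 (GLRX5) to 0.28 (GLRX3). AKR1A1, the aldo-keto reductase member with a bovine row, had an estimate of 0.16 ± 0.34. SOD1 (0.12), SOD2 (0.19), CAT (0.26) and HMOX2 (-0.06) did not pass. GSTT1 was listed at 1.54 to 10.5 in controls and at 0 to 3.89 after editing, below the limit for testing. Of the wider list, 39 genes were tested in cattle and 0 passed with limma, edgeR or DESeq2. At an unadjusted p under 0.05 there was 1 with limma, SLC3A2 (0.62 ± 0.23), and 2 with each of the other tools.

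**Figure D5:**
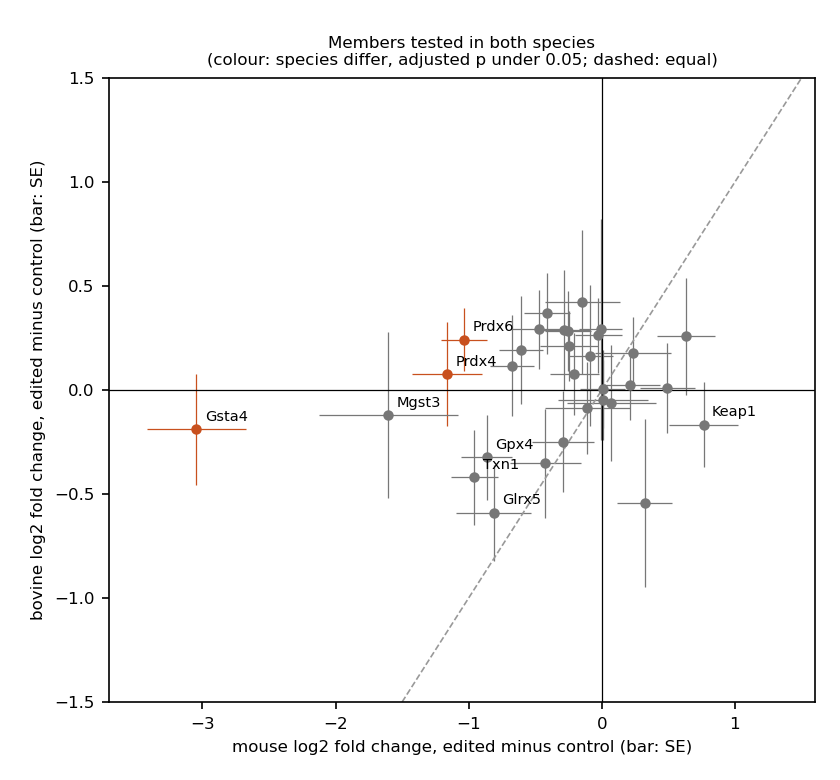
Log2 fold change (edited minus control) in bovine blastocysts against that in mouse morulae for the 31 members tested in both, with standard errors as bars. Coloured points (Gsta4, Prdx6 and Prdx4) differ between species at an adjusted p under 0.05, and the dashed line marks equal changes. The points span -3.05 to 0.76 in mouse and -0.59 to 0.42 in cattle.

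The difference between the mouse and the bovine fold change was itself tested for the 7074 genes tested in both tables, of which 6.06% differed. Among 31 members, 3 differed (9.68%), each lower in mouse. For Gsta4 the difference was -2.86 ± 0.46 (SE, adjusted p = 6.755e-05 from the limma estimates), with a bovine change of -0.19 ± 0.27 at levels of 11.8 to 27.1 normalized reads. For Prdx6 it was -1.28 ± 0.23 (adjusted p = 0.0003187), with a bovine change of 0.24. For Prdx4 it was -1.24 ± 0.36 (adjusted p = 0.03328), which held in 16 of 23 alternative fits. Akr1b8, Akr1b3 and Hmox1 were not compared, since the first 2 symbols had no bovine row and the third was too low. Aldose reductase is named AKR1B1 in cattle, a gene of the wider list, whose mean was 235 normalized reads in controls and 240.4 after editing (0.20 ± 0.38, limma adjusted p = 0.924). Its difference from mouse Akr1b3 was not tested. For Txn1, Gpx4, Sod1 and Sod2, all lower in mouse, the species difference did not pass (adjusted p from 0.101 to 0.273). Species, stage and depth differ together here and cannot be told apart.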

How the data were processed

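The members are the genes of 5 functional groups, and the groups, the wider pathway list, the marker lists and the tests were chosen with earlier results of these data known. Per the labels' protocols, libraries followed Smart-seq2, from polyadenylated RNA reverse-transcribed off oligo(dT). Tools in the submitters' processing notes are featureCounts, HISAT2, DESeq2 and Trimmomatic, without versions, with the builds mm10 and ARS-UCD1.2. Annotation, strand setting and the handling of reads with several matches are not given in the sources used here. Genes with close copies or pseudogenes (Gstm and Gstp genes, Gpx4, Txn1, Prdx1) and overlapping genes are therefore uncertain.

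The deposited signal values, 1 table per species, are read counts per gene that the authors scaled by 1 factor in each sample, as the values and, per the file headers, the column names show. Whole reads were recovered for 100% of values within 0.05 reads. The same tables hold the authors' log2 fold changes, test statistic (a score, not used) and, per the file headers, p-values before and after adjustment. An adjusted p under 0.05 was given for 10 mouse members in the authors' deposited table, and all 10 are among the 13 called here.

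Groups and replicate numbers came from sample titles. Within each table, genes averaging 10 normalized reads or more were tested on log2(value + 1), which understates changes of low genes, with limma 3.58.1 in R 4.3.3 (trend, two-sided), adjusted by Benjamini-Hochberg over all genes at 0.05. Every adjusted p is limma's unless another tool is named. The script was tested on simulated data. The species difference was divided by the root of the summed squared standard errors, with Satterthwaite degrees of freedom, over genes of the same symbol (TXN taken as Txn1). Full values are given for members that passed, for 8 genes of the NRF2 system and for the 5 bovine members with the smallest p. Alternatives were pseudocounts of 0.5 and 5, no filter or 50 normalized reads, robust limma, same-total scaling (in cattle also with RN18S1 left out of the total), the length trend removed, edgeR 4.0.16 and DESeq2 1.42.0 on recovered reads, a replicate block, and leaving out each sample. Those for the species difference were chosen after seeing the data. Mouse coordinates, lengths and sequences are from GENCODE M21 (GRCm38), which matched 89.0% of the mouse names and each tested member.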

Additional observations from a re-analysis of the deposited data

Results flagged for a closer look

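The species differences of Gsta4 (-2.857), Prdx6 (-1.277) and Prdx4 (-1.237, mouse minus bovine log2 fold change) passed the test of the difference itself. Gsta4 fell in mouse morulae and had a bovine estimate of -0.19, while Prdx6 and Prdx4 fell in mouse and had positive bovine estimates that did not pass. The Prdx6 difference held in 23 of 23 alternative fits and that of Gsta4 in 22 of 22, while that of Prdx4 was lost without mouse control sample 1 or 2, mouse edited sample 1, bovine control sample 4 or bovine edited samples 3, 4 or 5, taken singly (adjusted p up to 0.244).

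Bovine edited sample 2 stood apart for catalase, CAT, at 77.8 normalized reads against 174 to 208 in the other edited samples. Bovine control sample 6 stood apart for NFE2L1, which encodes an NRF2-related factor, at 132 against 49.2 to 68.5. These were the 2 values set apart on the log2 scale by Dixon's criterion over 66 groups of 6 samples, where chance alone sets apart about 1 group in 20.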

How the results depend on the processing

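The count of mouse members called (13, with 4 higher and 9 lower) was 7 with the length trend removed, 2 higher and 5 lower. In that fit 574 of all 10667 genes were higher and 573 lower. The higher members numbered 2 without a filter, where 692 of all 16655 genes were higher. They numbered 2 with DESeq2, where 594 of all 11386 genes were higher, against 788 in the main fit. Leaving out 1 sample gave 5 to 17 members called, 1 to 6 higher and 4 to 14 lower, where 4.68% to 22.6% of all genes passed. Leaving out 1 bovine sample gave 2 to 4 species differences, against 3 with all samples. The number also moved when 1 mouse sample was left out, which leaves 1 sample in its group. The share of all genes that differed was not counted in these fits, so the counts have no background. No bovine member was called under any alternative (limma, edgeR, DESeq2). Same-total scaling turned the split of all mouse calls to 1113 higher and 684 lower (61.9% higher, against 45.2%). Estimates that changed sign belonged to members that were not called in the first place. With same-total scaling Gclc was at 0.015 and bovine GCLC at 0.032. Leaving out 1 sample put Gclc between -0.26 and 0.040, Gclm between -0.77 and 0.47, Nfe2l2 between -0.34 and 0.82, Nqo1 between -0.30 and 0.75 and Srxn1 between -1.19 and 0.50, with 0.0027 for bovine GCLC without edited sample 5. The cause was not tested. Where 1 sample is left in a mouse group, it is assumed to vary like the other group.

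Same-numbered samples deviated together at r = 0.11 in mouse, with only 2 numbers, and at r from -0.19 to 0.34 in cattle, where only number 1 correlated best with its own. The numbers were therefore not taken to pair samples. With the replicate block, 14 mouse members were called (4 higher, 10 lower, Glrx5 added), 0 bovine members and 3 species differences. In these fits 15.9% of all mouse genes and 0.0113% of all bovine genes passed.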
